A study of Mus musculus with 16 samples.

Results

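The genes described here are 10 genes of fatty acid uptake and lipid carriage, out of 54347 genes counted in bone marrow progenitors of mice with normal or low PU.1. They are the fatty acid transport proteins *Slc27a1*, *Slc27a2*, *Slc27a3*, *Slc27a4* and *Slc27a6*, the scavenger receptor *Cd36*, the intracellular binding proteins *Fabp4* and *Fabp5*, and the apolipoproteins *Apob* and *Apoe*. They were picked by symbol, and the set was chosen by the measured difference between the genotypes, since *Slc27a3* and *Apob* were seen to be much higher in the mutant. Values of URE against WT are therefore given as a description, without a test. The rule that chose the set did not use the change from LSKs to GMPs within a genotype. This change was tested, although earlier results of these data were known.

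LSKs (Lin- Sca-1+ c-Kit+ cells, the compartment that contains the stem cells) and GMPs (Lin- Sca-1- c-Kit+ Cd16/32+ granulocyte-monocyte progenitors) came from URE mice and WT littermates on a C57BL/6 background, 8 to 12 weeks old. URE mice carry a germline deletion, on both alleles, of the upstream regulatory element of *Spi1*, the gene of the myeloid transcription factor PU.1, so that every cell of the mouse carries it. WT mice carry no deletion and no group was treated. Each of the 4 groups (WT LSK, URE LSK, WT GMP, URE GMP) held 4 mice, which gave 16 libraries.

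Long-chain fatty acids reach a cell bound to albumin or released from lipoproteins. CD36 binds them at the plasma membrane, and the transport proteins of the Slc27 family activate them to acyl-CoA, which holds them inside the cell. FABPs carry them through the cytosol. Apolipoprotein B is the structural protein of the particles that liver and intestine secrete, and apolipoprotein E, made in liver and macrophages, is a ligand by which particles are taken up again. In blood progenitors fatty acids serve as fuel for mitochondria and as material for membranes.

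*Spi1* was lower in URE libraries, as labelled. It was 3.05 CPM ± 1.41 (SD, n = 4) in URE LSKs and 125 ± 40.0 in WT LSKs, and 20.8 ± 5.59 in URE GMPs and 139 ± 38.1 in WT GMPs. The groups did not overlap in either cell type (p = 0.0286 in an exact permutation test, two-sided, the lowest value possible for 4 against 4 libraries). CPM stands for the counts of a library scaled to a common total (edgeR's cpm with TMM factors over all 16 libraries), and the totals lay between 20028302 and 29128858. Stem and progenitor markers summed to 3265 to 5335 CPM in LSKs and 1012 to 2659 in GMPs, whereas GMP markers summed to 722 to 1685 CPM in LSKs and 55350 to 154700 in GMPs. In each cell type Y-linked transcripts were present in 3 of 4 WT libraries and 1 of 4 URE libraries, so that sex and genotype are partly mixed in URE against WT. The replicate numbers with Y-linked transcripts were the same in LSKs and GMPs, and whether LSKs and GMPs of a number came from the same mouse is not stated. In every group the libraries of replicates 1 and 4 stood apart from those of replicates 2 and 3, for instance in the sum of 11 adipocyte and stroma markers, which reached 247.8 CPM in replicate 1 and 196.6 in replicate 4 of URE LSKs against 32.2 and 47.9 in replicates 2 and 3. The labels name no batch. Of the 11 markers, 8 to 10 had counts in each group. *Adipoq* was at most 0.22 CPM in any library and *Lep* was at 0 in 3 of the 4 groups. The other genes of the list, which make up these sums, were not examined singly. The part of fat and stroma cells was not tested.

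The stretches before the start sites of *Slc27a3* and *Apob* are shown because these are the genes with the widest gap between the genotypes. The sequences are those of RefSeq on GRCm38.p6. The promoter table used here matched 7 of the 10 genes, and those of *Fabp4*, *Fabp5* and *Slc27a6* were not analysed here. *Slc27a3* lies on the minus strand of chromosome 3, at chr3:90385239-90389938, and the 250 bases before it are chr3:90389939-90390188. *Apob* lies on the plus strand of chromosome 12, at chr12:7977648-8016835, and the 221 bases before the first annotated exon are chr12:7977427-7977647. Capitals mark a GC box (GGGCGG, read on either strand) in *Slc27a3* and a TATA box (TATAAA) in *Apob*.
Slc27a3 upstream: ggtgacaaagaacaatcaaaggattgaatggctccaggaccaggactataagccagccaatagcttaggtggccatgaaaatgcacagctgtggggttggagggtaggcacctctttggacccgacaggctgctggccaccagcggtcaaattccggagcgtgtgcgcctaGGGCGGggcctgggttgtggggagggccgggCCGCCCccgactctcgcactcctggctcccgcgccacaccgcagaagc
Apob upstream: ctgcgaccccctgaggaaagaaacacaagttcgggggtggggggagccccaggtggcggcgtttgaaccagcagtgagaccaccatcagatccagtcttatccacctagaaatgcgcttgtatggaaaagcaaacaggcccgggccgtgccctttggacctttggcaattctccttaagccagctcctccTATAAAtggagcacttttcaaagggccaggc

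The GC boxes of *Slc27a3* begin 79 and 48 bases before its RefSeq start, and a GC box on either strand was present in 32.7% of the 32851 promoter windows of the same 250 bases. The TATA box of *Apob* begins 60 bases before its RefSeq start, which lies 29 bases beyond the end of the printed stretch, and TATAAA on either strand was present in 12.4% of all windows. The letters GAGGAAGT, a core that PU.1 binds, were in none of the 7 genes' windows on either strand and in 2.44% of all windows. TGTGGT, a RUNX core, was found only in *Slc27a2*, 238 bases before its start, beside 14.0% of all windows. AGGTCA, a core of nuclear receptor sites, was found only in *Slc27a2* and *Cd36*, beside 14.0% of all windows. The windows of *Slc27a2* and *Cd36* lie before RefSeq starts that are inside these genes by GENCODE M21, so that these matches are within the genes by that annotation. Such matches are descriptions of these letters in these windows and no more.

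*Slc27a3* was near the detection limit in WT cells and clearly present in all URE libraries. FATP3, its product, is an acyl-CoA synthetase of intracellular membranes with little known transport activity. In WT LSKs its level was 0.228, 0.168, 0.0796 and 0.721 CPM in replicates 1 to 4, from 2 to 18 counts, and in URE LSKs 11.6, 6.69, 9.37 and 10.6 CPM. In WT GMPs it was 0.132, 0.343, 0.290 and 0.398 CPM, from 3 to 8 counts, and in URE GMPs 34.8, 24.6, 30.3 and 26.9 CPM. All 8 URE libraries lay above all 8 WT libraries. The fold of the summed counts was 31 in LSKs (95% exact counting interval 21.8 to 45.6) and 100 in GMPs (67.6 to 155), intervals that cover counting error only. URE against WT gave a log2 fold change of 4.96 ± 0.61 (SE) in LSKs and 6.65 ± 0.35 in GMPs.

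From LSKs to GMPs of URE mice, *Slc27a3* rose from 9.57 CPM ± 2.12 (SD, n = 4) to 29.1 ± 4.44, a log2 fold change of 1.61 ± 0.24 (adjusted p = 0.00166, edgeR), and the groups did not overlap. In WT cells it was under the filter of the fit, with 32 counts in all LSK and 25 in all GMP libraries, and without the filter the log2 fold change was -0.02 ± 0.73 (adjusted p = 0.987, edgeR). The difference of the genotype effect between GMPs and LSKs was 1.68 ± 0.66 on the log2 scale, and 0.81 ± 0.53 without replicate 4 of WT LSKs, the WT library with the highest level. The 8 neutrophil markers summed to 182.2 to 365 CPM in URE LSKs and 246 to 995 in URE GMPs. In WT mice the sums were 35.5 to 179.9 and 50.1 to 154 CPM. Within URE GMPs, replicate 1 had the lowest sum and the highest *Slc27a3*. The part of neutrophil cells in these values was not tested.

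*Apob* was, like *Slc27a3*, near the detection limit in WT cells. It was 0.488, 0.0336, 0.0796 and 1.16 CPM in WT LSKs and 32.1, 24.8, 21.3 and 22.0 CPM in URE LSKs. In WT GMPs it had 3 counts in replicate 1 (0.132 CPM) and 0 counts in replicates 2, 3 and 4, which allows up to 0.129, 0.145 and 0.149 CPM there. URE GMPs held 10.1, 0.652, 8.39 and 3.18 CPM. The URE libraries lay above the WT libraries of the same cell type throughout, but replicate 2 of URE GMPs, with 13 counts, lay below replicate 4 of WT LSKs, with 29. The fold of the summed counts was 56.4 in LSKs (95% exact counting interval 42.3 to 76.9) and 162 in GMPs (55.0 to 788), an interval that contains that of *Slc27a3*. On the log2 scale the fitted change was 5.79 ± 0.82 (SE) in LSKs and 7.14 ± 1.19 in GMPs. It was 6.85 ± 0.77 in LSKs without replicate 4 of WT LSKs, the WT LSK library with the most counts. Without replicate 1 of WT GMPs, the WT GMP libraries hold 0 counts, so that the fold has no measured denominator and none is given.

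In contrast to *Slc27a3*, *Apob* was lower in GMPs than in LSKs of URE mice. It fell from 25.1 CPM ± 4.92 (SD, n = 4) to 5.58 ± 4.41, a log2 fold change of -2.15 ± 0.65 (adjusted p = 0.0410, edgeR), with no overlap of the groups. The call depended on single libraries, since the adjusted p lay between 0.0641 and 0.113 without replicate 4 of URE GMPs or without any 1 of the URE LSK libraries. In those fits the log2 fold change lay between -2.18 and -1.95. In WT cells there were 47 counts in LSKs and 3 in GMPs, under the filter of the fit, a ratio of 15.5 (95% exact counting interval 5.0 to 78.0). Without the filter the log2 fold change was -3.50 ± 1.27 (adjusted p = 0.0920, edgeR), and by DESeq2 -3.64 ± 1.53 (adjusted p = 0.0609). The difference of the genotype effect between GMPs and LSKs was 1.35 ± 1.48 on the log2 scale. It rests on replicate 1 of WT GMPs, the WT GMP library with counts, without which it has no finite value.

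*Slc27a6*, the transport protein best known from heart, had the highest mean of the Slc27 family in URE LSKs, also per kilobase, although *Slc27a1* overlapped with it there. It lies on chromosome 18. Its level was 21.1, 16.9, 15.0 and 23.3 CPM in WT LSKs and 72.4, 67.6, 59.8 and 47.6 CPM in URE LSKs, without overlap. In GMPs it was 1.45, 1.07, 0.629 and 0.894 CPM in WT and 4.67, 1.41, 4.57 and 3.07 CPM in URE mice, where the lowest URE library lay just under the highest WT library. Between genotypes the log2 fold change was 1.66 ± 0.22 in LSKs and 1.79 ± 0.45 in GMPs, and the difference between them was 0.09 ± 0.43.

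From LSKs to GMPs *Slc27a6* fell in either genotype. Its log2 fold change was -4.23 ± 0.32 in WT mice (adjusted p = 4.64e-05, edgeR) and -4.16 ± 0.38 in URE mice (adjusted p = 0.000185), and in both the LSK libraries lay far above the GMP libraries. It was the steepest maturation change among the 8 genes of the set tested in WT and the 9 tested in URE mice, and it held within replicates 1 and 4 (-4.21 in WT, -3.88 in URE) and within replicates 2 and 3 (-4.15 and -4.35).

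Erythroid markers, among others, moved with *Apob* and *Slc27a6* in URE GMPs. The 11 erythroid markers were all detected in every group and summed to 1491, 239, 1622 and 917 CPM in replicates 1 to 4 of URE GMPs, in the same order of libraries as *Apob* except for the highest pair, and to 398 to 1051 CPM in WT GMPs. Replicate 2 of URE GMPs was the lowest in all of them. The 10 megakaryocyte markers, at 209, 79.8, 259 and 156 CPM, and the 7 mast cell and basophil markers, at 2042, 1105, 2575 and 1804 CPM, had the same order of libraries as the erythroid markers. GMP markers, at 102800, 154700, 72560 and 106800 CPM, had the reverse order. *Slc27a1*, *Slc27a3*, *Cd36* and *Fabp5* were also lowest in replicate 2. In LSKs the erythroid sum was 2234 to 2717 CPM in URE mice and 1201 to 1861 in WT mice, but not all its members went that way. *Car1* was 5.61 to 17.4 CPM in URE LSKs and 17.9 to 22.1 in WT LSKs. *Klf1* was 2.1 to 5.0 and 4.5 to 7.2 CPM, which overlapped. Without replicate 2 of URE GMPs the log2 fold change of *Apob* against WT GMPs was 7.50 ± 0.91. The sort excluded cells with the erythroid surface marker Ter119. The part of erythroid, megakaryocyte and mast cells in these values was not tested, and in bulk samples fewer cells of a type and less RNA per cell cannot be told apart.

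**Figure D1:**
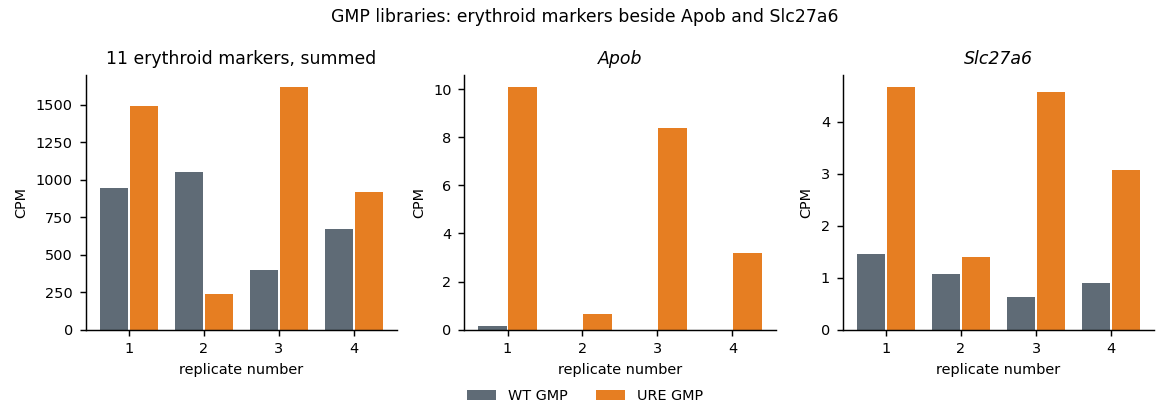
Bars give CPM of single GMP libraries by replicate number, WT in grey and URE in orange, for the sum of 11 erythroid markers, for Apob and for Slc27a6. Replicate 2 of URE GMPs is the lowest URE library in all panels, at 239 CPM of erythroid markers, 0.652 CPM of Apob and 1.41 CPM of Slc27a6.

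Of the 9 liver and intestine markers, *Alb*, *Ttr*, *Serpina1a*, *Apoa4*, *Fgb* and *Apoc3* were at 0 counts in all 16 libraries, and the list, of which *Trf*, *Hnf4a* and *Apoa1* had counts, summed to 112 to 156 CPM in URE LSKs, 335 to 424 in WT LSKs, 395.6 to 599.6 in URE GMPs and 457 to 589 in WT GMPs, while *Apob* reached 800 counts in 1 URE LSK library. *Mttp*, the transfer protein that loads lipid onto apolipoprotein B, was 12.2 CPM ± 7.40 (SD, n = 4) in URE LSKs and 9.83 ± 1.95 in WT LSKs, and 6.22 ± 1.27 and 5.4 ± 1.80 in URE and WT GMPs. Its log2 fold change was 0.28 ± 0.40 in LSKs (adjusted p = 0.894, edgeR) and 0.21 ± 0.32 in GMPs (adjusted p = 0.794).

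*Slc27a2* moved the other way. FATP2, its product, is both a transporter and a very long-chain acyl-CoA synthetase of liver and kidney. It was 9.64, 12.6, 6.53 and 4.33 CPM in WT LSKs and 0.561, 0.402, 0.292 and 0.943 CPM in URE LSKs, which did not overlap, a log2 fold change of -3.95 ± 0.50. Counts in GMPs were low, 6 to 29 in WT and 1 to 3 in URE libraries, and too few for the fit with its filter. Without the filter the log2 fold change was -2.93 ± 0.75, and by DESeq2 -3.01 ± 0.87. Their summed ratio, WT over URE, was 8.31 (95% exact counting interval 3.80 to 21.5). During maturation of WT cells *Slc27a2* fell from 8.27 CPM ± 3.62 (SD, n = 4) to 0.731 ± 0.506, a log2 fold change of -3.49 ± 0.56 (adjusted p = 0.00193, edgeR). In URE cells the summed counts were 55 in LSKs and 7 in GMPs, a ratio of 7.42 (3.37 to 19.3), and DESeq2 called it lower in GMPs (-2.52 ± 0.88, adjusted p = 0.0218), while edgeR without the filter did not (-2.54 ± 0.84, adjusted p = 0.0726). Its exons share 419 bases with *Gm26697*, a long noncoding RNA on the opposite strand. That gene has no row in the deposited counts under its GENCODE M21 identifier. The libraries carry no strand information, so reads of that stretch may come from either gene.

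**Figure D2:**
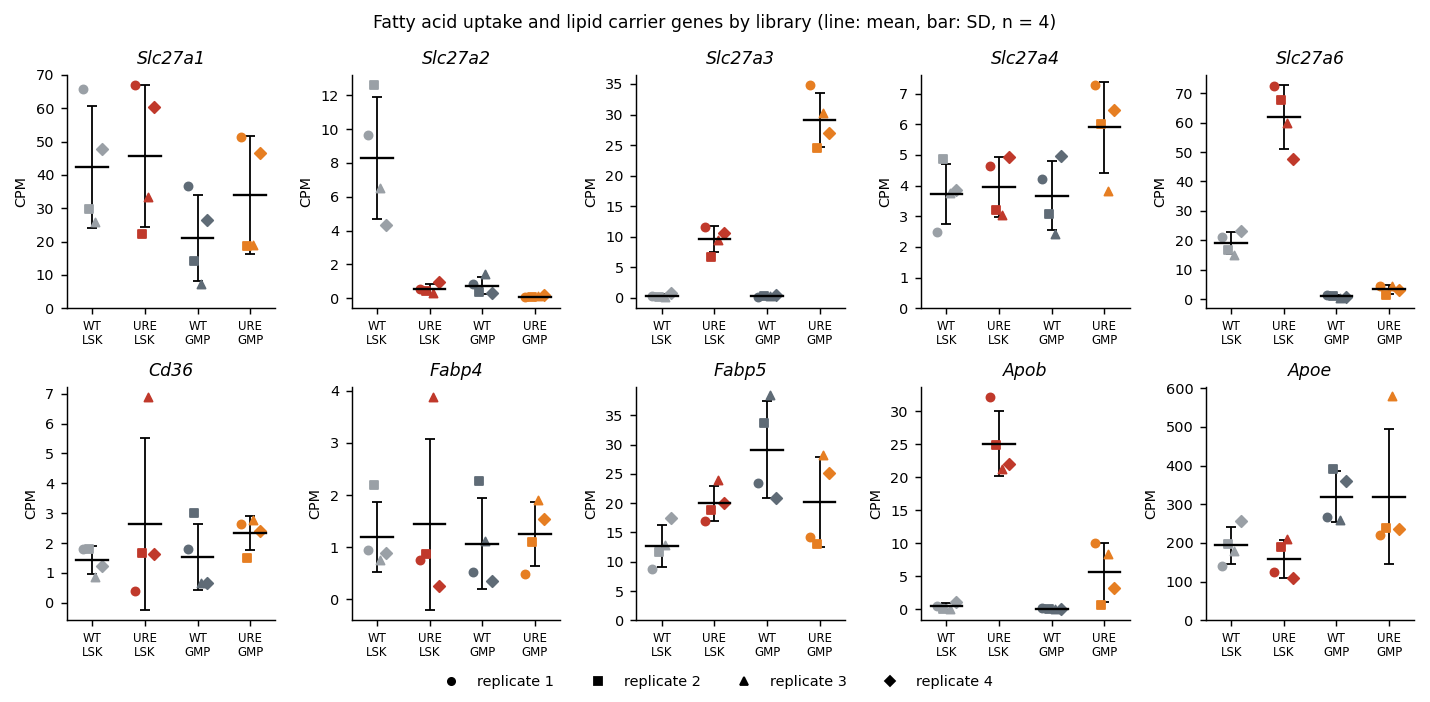
Each panel plots CPM of a gene in the 16 libraries, with marker shapes for replicates 1 to 4, lines for group means and bars for the SD of 4 libraries. Slc27a3 and Apob are near 0 in both WT groups, Slc27a3 is highest in URE GMPs (29.1 CPM) and Apob in URE LSKs (25.1 CPM), and Slc27a2 is highest in WT LSKs (8.27 CPM).

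*Slc27a1* encodes the insulin-responsive FATP1 of muscle and fat. In WT LSKs it was 65.7, 29.7, 26.0 and 47.7 CPM in replicates 1 to 4, in URE LSKs 67.1, 22.4, 33.5 and 60.3 CPM, in WT GMPs 36.6, 14.0, 7.26 and 26.4 CPM, and in URE GMPs 51.5, 18.6, 19.0 and 46.7 CPM. Replicates 1 and 4 were above replicates 2 and 3 in every group, as was the sum of the adipocyte and stroma list. The part of fat and stroma cells in the result was not tested. The gene shares 51 to 54 of its 5929 31-base words with *Cflar*, *Glo1*, *Ist1* and *Wnt4*. Their own counts over all 16 libraries were 25400, 79655, 81056 and 50, and the part of shared words in its level was not tested. The log2 fold change of URE against WT was 0.07 ± 0.40 in LSKs and 0.71 ± 0.52 in GMPs, where the URE library was the higher in 4 of 4 same-numbered pairs, while blocking on the replicate number gave 0.79 ± 0.19. From LSKs to GMPs the level in WT mice went from 42.2 CPM ± 18.3 (SD, n = 4) to 21.1 ± 13, a log2 fold change of -1.0 ± 0.49 (adjusted p = 0.165, edgeR). With the replicate block this was -1.13 ± 0.17 (adjusted p = 0.000745), and it was lower in 4 of 4 pairs. For URE mice the values were -0.43 ± 0.44 (adjusted p = 0.536) and, with the block, -0.45 ± 0.15 (adjusted p = 0.0487, under the fold threshold).

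*Slc27a4* encodes FATP4 of intestine and skin and was low. Group means were 3.73 CPM ± 0.98 (SD, n = 4) in WT LSKs, 3.96 ± 0.97 in URE LSKs, 3.67 ± 1.14 in WT GMPs and 5.89 ± 1.48 in URE GMPs. All groups overlapped with each other, although in GMPs the URE library was higher in 4 of 4 same-numbered pairs, as was the GMP library in 4 of 4 pairs of URE mice. Between genotypes the log2 fold change was 0.04 ± 0.32 in LSKs and 0.70 ± 0.32 in GMPs, and that of maturation was -0.02 ± 0.33 in WT (adjusted p = 0.976, edgeR) and 0.58 ± 0.32 in URE mice (adjusted p = 0.229).

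*Cd36* and *Fabp4*, genes of platelets, macrophages, fat and capillary endothelium, were scarce. *Cd36* was 1.79, 1.81, 0.876 and 1.24 CPM in WT LSKs and 0.401, 1.67, 6.87 and 1.63 CPM in URE LSKs. *Fabp4* was 0.944, 2.18, 0.756 and 0.881 CPM in WT LSKs and 0.762, 0.870, 3.87 and 0.257 CPM in URE LSKs. Replicate 3 of URE LSKs was the highest in both. The same library had the highest sum of 10 megakaryocyte markers, 882 CPM against 70.5 to 175.6 in the other URE LSK libraries and 72.3 to 94.4 in WT LSKs, and their part in the result was not tested. The log2 fold change of URE against WT LSKs was 0.87 ± 0.74 for *Cd36* and 0.26 ± 0.77 for *Fabp4*, and without this library it was -0.25 ± 0.54 and -0.95 ± 0.58.

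In GMPs *Cd36* lay between 0.646 and 3.0 CPM in WT and 1.51 and 2.76 in URE mice, and *Fabp4* between 0.348 and 2.27 and between 0.481 and 1.91 CPM. Neither changed with maturation by the test, with log2 fold changes of 0.08 ± 0.52 in WT and -0.20 ± 0.73 in URE mice for *Cd36* (adjusted p = 0.934 and 0.875, edgeR) and of -0.18 ± 0.60 and -0.21 ± 0.79 for *Fabp4* (adjusted p = 0.866 and 0.879). Without replicate 3 of URE LSKs the values in URE mice turned to 0.97 ± 0.53 for *Cd36* and 1.06 ± 0.61 for *Fabp4* (adjusted p = 0.2501 and 0.276, edgeR). With 6 to 165 counts of these genes in a library, the SEs of 0.52 to 0.79 set what could be detected.

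*Fabp5*, the broadly expressed epidermal-type binding protein, was the binding protein with the higher level. It was 8.76, 11.7, 12.8 and 17.5 CPM in WT LSKs, 17.0, 18.8, 23.9 and 20.1 CPM in URE LSKs, 23.5, 33.8, 38.4 and 20.9 CPM in WT GMPs, and 14.1, 13, 28.2 and 25.1 CPM in URE GMPs. The URE value was above the WT value in 4 of 4 same-numbered LSK pairs and in 1 of 4 GMP pairs, although the groups overlapped in both cell types. In WT mice *Fabp5* rose with maturation, with a log2 fold change of 1.20 ± 0.28 (adjusted p = 0.0126, edgeR) and no overlap. The change was 0.78 ± 0.37 within replicates 1 and 4 (adjusted p = 0.18) and 1.63 ± 0.28 within replicates 2 and 3 (adjusted p = 0.0204). In URE mice it was 0.02 ± 0.30 (adjusted p = 0.970). The genotype effect in GMPs minus that in LSKs was -1.15 ± 0.41, between -1.38 and -0.99 when single libraries were left out. It is given without a test, since it contains the contrast that chose the genes. *Fabp5* shares up to 260 of its 3592 31-base words with processed copies such as *Gm6166*, whose own counts were 0 to 4 over all 16 libraries.

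*Apoe* was the most abundant of the 10 genes in all groups. It was 141, 199, 179 and 256 CPM in WT LSKs, 124, 190, 209 and 111 CPM in URE LSKs, 268, 391, 258 and 359 CPM in WT GMPs, and 219, 240, 580 and 237 CPM in URE GMPs. The log2 fold change of URE against WT was -0.32 ± 0.26 in LSKs and 0.03 ± 0.34 in GMPs, and in GMPs -0.46 ± 0.20 without replicate 3 of URE GMPs. In that replicate of URE GMPs the macrophage genes *C1qb* and *C1qc*, at 42.2 and 42.2 CPM, were also the highest of the 4 libraries, against 9.84 to 18.2 and 4.42 to 21.6 CPM. The sum of all 12 macrophage markers was 270 CPM there and highest, at 399.5, in replicate 4. Their part in the result was not tested.

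During maturation *Apoe* rose in WT mice from 194 CPM ± 47.7 (SD, n = 4) to 319 ± 66.0, a log2 fold change of 0.72 ± 0.22 (adjusted p = 0.0372, edgeR), without overlap. The adjusted p rose to between 0.0657 and 0.0931 in 5 of the 8 fits without 1 library, namely replicates 2 and 4 of GMPs and replicates 1, 2 and 3 of LSKs. In URE mice the GMP libraries also lay above all LSK libraries, with a log2 fold change of 1.02 ± 0.37 (adjusted p = 0.0776). With the replicate block this was 0.94 ± 0.18 (adjusted p = 0.00443), and without replicate 3 of URE GMPs and without the block it was 0.56 ± 0.25 (adjusted p = 0.153).

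**Figure D3:**
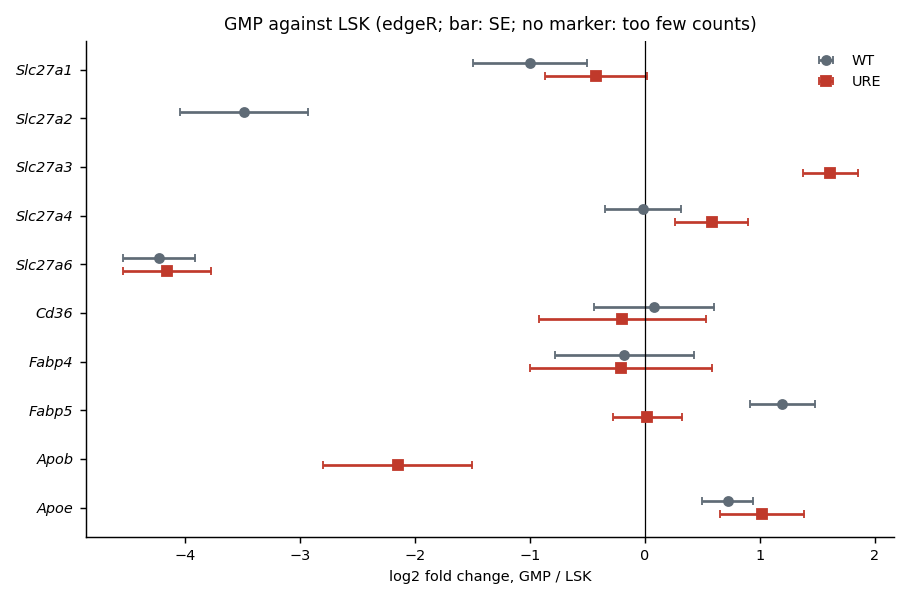
Log2 fold changes of GMPs against LSKs by edgeR with SE bars, for WT (grey circles) and URE (red squares). Slc27a6 falls equally far in both genotypes within the error (-4.23 and -4.16), Fabp5 is at 1.20 in WT and 0.02 in URE, and genes without a marker had too few counts.

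Counted over the 10 genes, 4 were called during WT maturation (adjusted p below 0.05, more than 1.5-fold), with *Fabp5* and *Apoe* higher and *Slc27a2* and *Slc27a6* lower, among 8 with enough counts. Of all 14767 genes tested, 11.5% were called higher and 15.8% lower. In URE mice 3 of 9 were called, with *Slc27a3* higher and *Apob* and *Slc27a6* lower, against 9.2% called higher and 12.6% lower of 14395 genes. With the replicate block *Slc27a1* was also called lower in WT mice, 5 genes beside 40.9% of all genes. *Apoe* was also called higher in URE mice with the block, 4 genes beside 31.9% of all genes. Groups did not overlap for 4 of the 8 tested genes in WT and for 4 of the 9 in URE mice, *Apoe* being the fourth, against 31.3% and 26.6% of all genes. These comparisons share no library with each other.

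For URE against WT the same thresholds held for *Apob*, *Slc27a3* and *Slc27a6* higher and *Slc27a2* lower in LSKs, where 2.38% and 3.76% of 15154 genes were called higher and lower. In GMPs they held for *Apob*, *Slc27a3* and *Slc27a6*, where 4.67% and 3.63% of 13829 genes were called. *Slc27a6* was past them in 1 of 8 fits without a library in GMPs. With the Y-linked covariate, within replicates 1 and 4 and within replicates 2 and 3 it was not past them there. *Apob* in GMPs was not past them with the CPM filter or within replicates 2 and 3. *Slc27a2*, under the filter in GMPs, was past them there without the filter, in the joint fit and with DESeq2. With the replicate block *Slc27a1* was past them too (0.79). The groups did not overlap for 4 of 10 genes in LSKs and for *Apob* and *Slc27a3* of 9 in GMPs, against 12.6% and 14.9% of all genes tested. Since this contrast chose the genes, nothing is read from these counts. Within replicates 1 and 4 and within replicates 2 and 3 the log2 fold change in LSKs was 4.51 and 5.94 for *Slc27a3*, 4.98 and 8.58 for *Apob*, 1.37 and 1.99 for *Slc27a6* and -3.27 and -4.77 for *Slc27a2*. Replicates 2 and 3 of WT LSKs held 5 and 2 counts of *Slc27a3* and 1 and 2 of *Apob*, so that these folds rest on few counts. In GMPs the log2 fold change was 6.84 and 6.45 for *Slc27a3*. For *Apob* in GMPs it was 6.45 within replicates 1 and 4. Replicates 2 and 3 of WT GMPs held 0 counts of *Apob*, so that no fold is given within them.

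**Figure D4:**
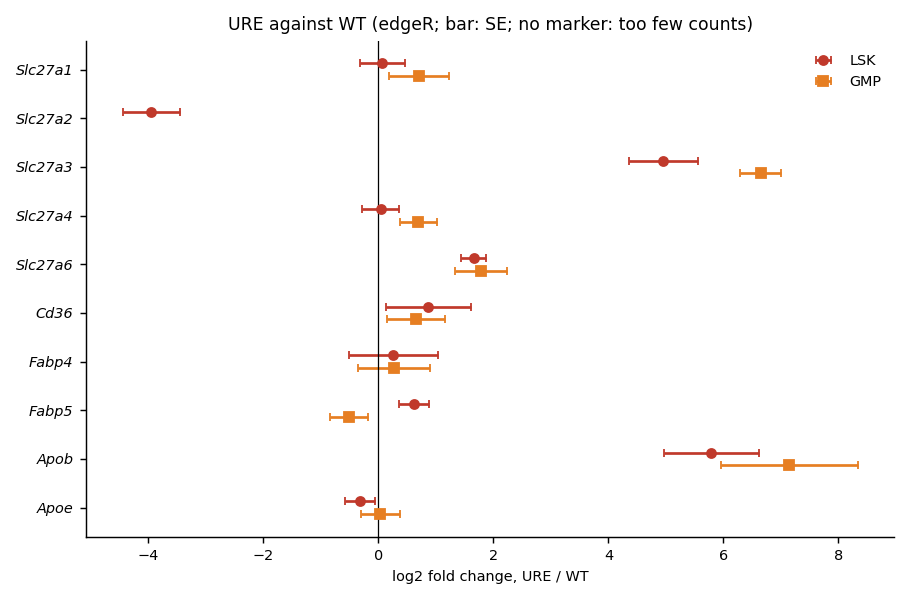
Log2 fold changes of URE against WT by edgeR with SE bars, in LSKs (red circles) and GMPs (orange squares). Slc27a3 and Apob lie at 4.96 and 5.79 in LSKs and at 6.65 and 7.14 in GMPs, Slc27a2 lies at -3.95 in LSKs and had too few counts in GMPs.

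Per kilobase of the principal transcript, a scale on which genes can be compared, *Apoe* led in every group, from 113 CPM per kb in URE LSKs to 227 in WT GMPs, without overlap with the next gene. *Slc27a1* and *Fabp5* followed in WT LSKs at 15.1 ± 6.54 and 12.8 ± 3.69 CPM per kb (SD, n = 4), which overlapped. In URE LSKs *Slc27a6*, *Fabp5* and *Slc27a1* followed at 24.9 ± 4.36, 20.2 ± 2.99 and 16.4 ± 7.63, each overlapping with the next. In URE GMPs *Slc27a3*, at 12.9 ± 1.97 CPM per kb, stood beside *Fabp5* and *Slc27a1* at 20.4 ± 7.78 and 12.2 ± 6.29, whereas in WT GMPs it was ninth in order at 0.129 ± 0.051. *Apob*, with a transcript of 13934 bases, was last in WT LSKs and WT GMPs and reached 1.80 ± 0.35 CPM per kb in URE LSKs.

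Of the nearest protein-coding neighbours of *Slc27a3* and *Apob*, taken by position on either side, 3 of 4 had enough counts and did not pass the test, and *Klhl29*, the other neighbour of *Apob*, was not tested. *Ints3*, 1450 bases from *Slc27a3*, had a log2 fold change of -0.01 ± 0.36 in LSKs (adjusted p = 0.996, edgeR) and 0.48 ± 0.43 in GMPs (adjusted p = 0.634). *Gatad2b*, 21832 bases away on the other side, had 0.32 ± 0.35 (adjusted p = 0.839) and -0.30 ± 0.41 (adjusted p = 0.771). *Ldah*, a lipid droplet hydrolase gene 191272 bases from *Apob*, had 0.12 ± 0.18 (adjusted p = 0.906) and 0.27 ± 0.15 (adjusted p = 0.389).

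The genes most like *Slc27a3* over the 16 libraries, by the root mean square difference of centred log2 CPM among 11439 genes, were *Rbm45* (0.954), *Sdc2* (0.983) and *Tjp1* (1.25), where the median gene differed by 2.95. *Rbm45* went from 2.14 CPM in WT LSKs to 51.8 in URE LSKs and from 2.82 in WT GMPs to 50.7 in URE GMPs. The genes most like *Apob* were *Pgr* (1.26), *Fam169a* (1.39) and *Prkcz* (1.40), with a median gene at 3.26. *Pgr* was 2.15 CPM in WT LSKs, 34.7 in URE LSKs, 0.147 in WT GMPs and 9.38 in URE GMPs. These are descriptions of the closest patterns.

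Around the 10 genes, a list of 195 other genes of lipid uptake, binding, activation, oxidation, synthesis, storage and transport was read in the same fits. Most other genes of the transporter and binding group were almost silent. *Got2*, a mitochondrial aminotransferase also described as a membrane fatty acid binding protein, was an exception, with group means of 198 to 296 CPM. *Slc27a5* had 15 counts over all 16 libraries, *Fabp1* 9, *Fabp3* 43 and *Fabp6* 0, and 13 of the 17 genes in the transport and binding group never had enough counts for a test, with at most 20 counts in a library. *Dbi*, the acyl-CoA binding protein, rose with maturation in WT (log2 fold change 1.35 ± 0.31, adjusted p = 0.0109, edgeR) and in URE mice (1.56 ± 0.29, adjusted p = 0.00476).

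In URE against WT LSKs, 1 of the 132 list genes with enough counts was called higher and 2 lower, which is 2.27% beside 6.14% of all genes tested, and the median log2 fold change was 0.03 beside 0.00 over all genes. *Elovl6*, which elongates palmitate, rose from 65.9 CPM ± 7.34 (SD, n = 4) to 107 ± 9.59 (log2 fold change 0.67 ± 0.15, adjusted p = 0.0320, edgeR). *Sort1*, a sorting receptor that binds apolipoprotein B, fell from 19.8 CPM ± 4.22 to 2.11 ± 1.54 (-3.27 ± 0.47, adjusted p = 0.00333). The other gene called lower was *Nr0b2*, a repressor of nuclear receptors, which was too low for the naming rule and is given because it was called. The synthetase *Acss2*, which makes acetyl-CoA from acetate, stayed at 0.06 ± 0.23 (adjusted p = 0.971). With the replicate block, 6 were called higher and 8 lower, 10.6% beside 9.46% of all genes.

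In URE against WT GMPs, 9 of 132 were called higher and 2 lower, which is 8.33% beside 8.3% of all genes tested, with a median of 0.22 beside 0.01 (with the replicate block, 23 and 6, 22% beside 16.3% of all genes). *Clu*, the apolipoprotein J gene, rose from 5.14 CPM ± 0.65 (SD, n = 4) to 189 ± 99.0 (log2 fold change 5.21 ± 0.45, adjusted p = 0.000383, edgeR). *Dgat2*, which makes triglyceride, and *Mgll*, which splits monoglyceride, rose by 3.32 ± 0.50 (adjusted p = 0.00399) and 2.68 ± 0.30 (adjusted p = 0.00113). *Olr1*, a receptor for oxidized LDL, rose by 2.84 ± 0.57 (adjusted p = 0.0146), *Ffar2*, a receptor for short-chain fatty acids, by 1.18 ± 0.26 (adjusted p = 0.0220), *Mlx*, a glucose and lipid response factor, by 1.27 ± 0.26 (adjusted p = 0.0155), and *Acadl*, a dehydrogenase of mitochondrial oxidation, by 1.15 ± 0.26 (adjusted p = 0.0250). Neutrophil markers summed to 246 to 995 CPM in URE GMPs and to 50.1 to 154 in WT GMPs, and their part in these values was not tested. The sort excluded cells with the neutrophil surface marker Gr1. The genes called lower, *Nr0b2* and the lipid droplet gene *Fitm1*, and *Acox2* and *Mfsd2a* among those called higher were below the expression that the naming rule asks for. *Acss2* had 0.53 ± 0.38 (adjusted p = 0.518).

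From LSKs to GMPs, 21 of 133 list genes were called higher and 20 lower in WT mice, 30.8% beside 27.3% of all genes, with a median of 0.01 beside -0.09 (25 and 37 with the replicate block, 46.6% beside 40.9%). In URE mice 27 of 130 were called higher and 16 lower, 33.1% beside 21.8% of all genes, with a median of 0.23 beside -0.09 (34 and 21 with the block, 42.3% beside 31.9%). *Vldlr*, a receptor of apolipoprotein E, fell in both (-3.86 ± 0.43, adjusted p = 0.000329, and -4.72 ± 0.74, adjusted p = 0.00226, edgeR). So did *Abca1*, which exports cholesterol to apolipoproteins (-1.57 ± 0.29, adjusted p = 0.00376, and -1.72 ± 0.38, adjusted p = 0.0112). *Abcd2*, a peroxisomal importer of fatty acyl-CoA, rose in both (2.36 ± 0.19, adjusted p = 7.99e-05, and 3.19 ± 0.36, adjusted p = 0.000451), as did *Etfb*, which takes electrons from beta-oxidation (1.35 ± 0.23, adjusted p = 0.00266, and 1.40 ± 0.21, adjusted p = 0.00186). *Hnf4a*, a nuclear receptor of lipoprotein genes in liver, fell in WT mice from 40.7 CPM ± 25.3 (SD, n = 4) to 3.87 ± 2.58 (-3.39 ± 0.66, adjusted p = 0.00495). In replicates 1 to 4 of URE mice it was 10.6, 2.01, 8.29 and 19.7 CPM in LSKs. In GMPs of URE mice it was 0.385, 0.0502, 0.452 and 2.69 CPM, lower than in the LSK library of each number. These groups overlapped only by replicate 2 of LSKs and replicate 4 of GMPs, so that by the naming rule no fold is given.

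**Figure D5:**
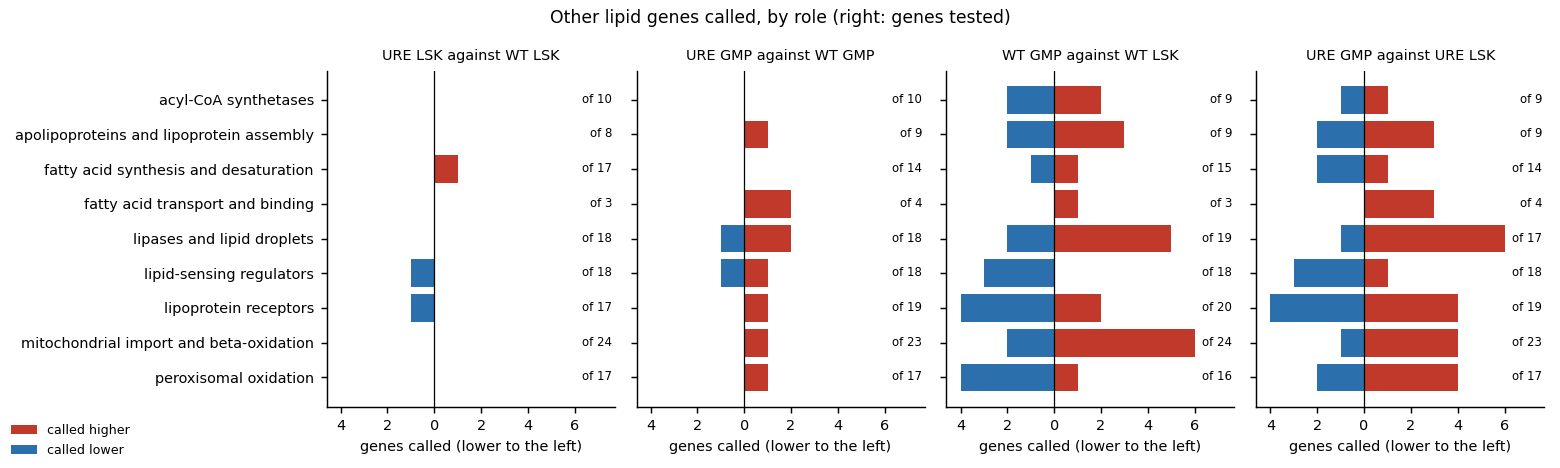
Number of the other lipid genes called higher (red, to the right) and lower (blue, to the left) in each of 9 role groups and 4 comparisons, with the number tested at the right edge. Totals were 1 higher and 2 lower in LSKs by genotype, 9 and 2 in GMPs by genotype, 21 and 20 in WT maturation and 27 and 16 in URE maturation.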

How the data were processed

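RNA-seq of 16 libraries (LSKs and GMPs of 4 URE and 4 WT mice per group) was analysed. The authors' low-input libraries (at most 10 ng of RNA each) mark neither strand nor single molecules. The authors quantified reads with salmon on GRCm38 and summed the transcripts per gene with tximport. The deposited values are estimated counts, rounded to whole numbers and not normalized. The annotation release is not given in the sources used here. The number of value columns without a sample was 0. Coordinates, gene lengths and neighbours are from GENCODE M21, which holds 54094 of the 54347 genes.

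Counts were fitted with edgeR 4.0.16 (limma 3.58.1, R 4.3.3) by the quasi-likelihood test with TMM scaling, filterByExpr and Benjamini-Hochberg adjustment over all genes tested, separately for each comparison of 8 libraries. A call needed an adjusted p below 0.05 together with more than 1.5-fold change. The SE is the size of the log2 fold change divided by the square root of its F. Intervals are 95% exact (Clopper-Pearson) and, like the floor of 3 counts for a count of 0, cover counting error only. For likeness, 2 prior counts were added before taking log2 CPM. The code was tested on simulated data.

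The members and lists were chosen with earlier results of these data known, and the TATA and GC boxes were added once the sequences had been seen. Named genes are the 10 members, *Spi1*, *Acss2*, *Mttp*, from the list up to 2 called genes per role group and direction with the largest change, no overlap and a mean log2 CPM of at least 1, and the 3 genes most like *Slc27a3* and *Apob*. Neighbours and markers were taken by position and as fixed lists, and *Slc27a5*, the FABPs beside it, *Got2*, *Nr0b2*, *Fitm1*, *Acox2* and *Mfsd2a* were chosen after their values were seen. Not all genes the rule allows are discussed, and 1 of them is not reported here.

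The replicate numbers come from the labels. Deviations of same-numbered libraries from their group means correlated at 0.334 to 0.88 in all 16 pairs (11439 genes). Replicates 1 and 4, and 2 and 3, also correlated with each other (0.13 to 0.586). For replicate 4 of 1 genotype, the correlation with replicate 1 of the other was 0.586 in LSKs and 0.582 in GMPs, above the 0.394 and 0.334 with its own number. Across genotypes, replicates 2 and 3 join a WT library with Y-linked transcripts and a URE library with almost none. By the correlations of same-numbered pairs, the numbers were taken to pair the samples and the replicate block was fitted as an alternative (for *Slc27a1* in WT maturation, -1.13 against -1.0). Other alternatives were DESeq2 1.42.0, its size factors, other count filters, a joint fit, replicates 1 and 4 or 2 and 3 alone, Y-linked expression as a covariate, and each library left out. Plots were drawn with matplotlib 3.10.9 and permutation tests run with scipy 1.17.1.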

Additional observations from a re-analysis of the deposited data

Results flagged for a closer look

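In 3 of the 39 groups of 4 libraries checked over the 10 genes, 1 library lay far from the others of its group by Dixon's test, which by chance marks about 1 group in 20. *Apoe* was 579.8 CPM in replicate 3 of URE GMPs, where the others lay between 219.4 and 239.7. *Fabp4* was 3.874 CPM in replicate 3 of URE LSKs, against 0.257 to 0.870, and 2.184 CPM in replicate 2 of WT LSKs, against 0.756 to 0.944.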

How the results depend on the processing

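For URE against WT, which chose the genes, counts past the thresholds are given as a description only. In GMPs there were 3 of the 10 genes (beside 8.3% of all genes), and 1 within replicates 2 and 3 (beside 0.759%). The joint fit lost *Apoe* in WT and *Apob* in URE maturation and gained *Apoe* and *Slc27a2* in URE maturation, and replicates 2 and 3 alone lost *Apoe* in WT and *Apob* in URE maturation. In WT maturation 4 genes passed (beside 27.3% of all genes), and 2 within replicates 1 and 4 (beside 20.1%). In URE maturation 3 passed (beside 21.8% of all genes). There 5 passed within replicates 1 and 4 (beside 28.7%) and 5 with DESeq2 (beside 22.6%). Of the list genes, 3 were called in LSKs by genotype, against 14 with the replicate block and 10 in the joint fit (7.04% beside 6.88% of all genes). Within replicates 1 and 4 it was 7 (5.19% beside 6.42%), and with DESeq2 13 (8.12% beside 7.99%). With the Y-linked covariate it was 2 (1.52% beside 3.37%). In GMPs 11 were called, against 29 with the block and 24 with DESeq2 (15.8% beside 10.8% of all genes). With the Y-linked covariate 6 were called (4.55% beside 4.56%), and within replicates 2 and 3 it was 1 (0.746% beside 0.759%). In WT maturation 41 were called, against 62 with the block and 20 within replicates 2 and 3 (15% beside 16.4% of all genes). In URE maturation 43 were called, against 14 within replicates 2 and 3 (10.3% beside 5.5%) and 59 within replicates 1 and 4 (44% beside 28.7%). The share of all genes called moved too: with the block it went from 6.14% to 9.46% in LSKs, from 8.3% to 16.3% in GMPs and from 27.3% to 40.9% in WT maturation. Within replicates 2 and 3, *Spi1* in GMPs was at -2.39 on the log2 scale (adjusted p = 0.0713, edgeR). Those fits hold fewer samples, and the cause of the other shifts was not tested. In maturation the replicate block changed no call of the 10 genes beyond those of *Slc27a1* and *Apoe* (for *Slc27a1* in WT mice, -1.13). RLE size factors moved the median of all genes by at most 0.07 log2 units. Depth limits *Slc27a2* in GMPs and *Apob* and *Slc27a3* in WT cells.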
